A study of Homo sapiens with 3 samples.

Results

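Surface antigens of myeloid leukaemia are proteins on the outer membrane by which leukaemic cells are recognised in diagnosis and, for several of them, targeted by antibodies. The 10 genes described here were listed by name, not by any measured value: CD33, CD38, CD47, CD96, CD99, CLEC12A, HAVCR2, IL1RAP, CD14 and ITGAM. They are 10 of the 19974 genes annotated as protein-coding on the autosomes and chromosome X. Their chromatin was read in wild-type KBM7 cells, an established line with a near-haploid genome, derived from chronic myeloid leukaemia and positive for BCR-ABL. Chromatin immunoprecipitation with sequencing gave 1 library for H3K27ac (antibody ab4729), 1 for H3K4me3 (antibody 07-473) and 1 input library of DNA that was not immunoprecipitated. All libraries are from 1 line and the labels name no treatment, so there is no other condition, no replicate and no test between groups. Peaks of each mark that overlapped a gene record of RefSeq (GRCh38.p14) with 5 kb either side were taken as that gene's peaks. This gave 99 of 96659 H3K27ac peaks and 32 of 36951 H3K4me3 peaks.

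H3K4me3 is found at promoters, and H3K27ac at active promoters and enhancers. A promoter with both is usually one that is in use, and many H3K27ac peaks away from a promoter are enhancers. Super-enhancers are long groups of such peaks. Antigens used in myeloid leukaemia differ in where they normally occur. CD47 and CD99 are found on most cell types, CD33, CLEC12A, CD14 and ITGAM on myeloid cells, CD38 on many activated blood cells, and CD96 and HAVCR2 mainly on lymphocytes and some myeloid cells. IL1RAP is the shared accessory chain of several interleukin-1 family receptors and has been described on stem cells of chronic myeloid leukaemia.

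The value of a peak is its fold, the authors' enrichment at the summit over the expected background, beside the number of fragments at the summit. The median peak had a fold of 4.47 from 21 fragments in the H3K27ac list and 10.2 from 39 in the H3K4me3 list. Genes that mark cell types were read first, as a check of the labelled myeloid cell type. Both marks were within 1 kb of the start of all 4 progenitor markers (CD34, KIT, GATA2 and MYB), but of 3 of 11 granulocyte and monocyte markers (MPO, LYZ and CSF2RA). CSF2RA is pseudoautosomal, with a copy on chromosome Y, and its call is uncertain. ELANE, CSF1R, FCGR3B, S100A8 and S100A9 had neither mark there. PRTN3, AZU1 and CSF3R had H3K27ac alone. For MPO, LYZ and some other markers the reference used listed no start, so both ends of the record were searched. Their peaks may lie at the far end or belong to a neighbouring gene. Both marks were also at 4 of 5 B cell markers, among them CD79A (H3K27ac fold 43.7) and PAX5 (37.4), at 3 of 7 T and NK cell markers, at 2 of 4 megakaryocyte markers and at 1 of 5 erythroid markers. Of all protein-coding genes 59.5% had both marks there, so the shares of the T and NK cell, megakaryocyte, erythroid and myeloid lists were below that of all genes. Of the 11 myeloid markers 6 had H3K27ac and 3 had H3K4me3. What part this has in the values of the antigens was not tested.

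The antigens differed in the marks they had at the start. IL1RAP, CD99, CD47, CD33 and ITGAM had a peak of both marks within 1 kb of the start, which is 5 of 10 (95% Wilson interval 23.7 to 76.3%), where 59.5% of all protein-coding genes had both. CD38 had H3K4me3 without H3K27ac, a state of 6.44% of all genes. CLEC12A and HAVCR2 had H3K27ac without H3K4me3, a state of 2.20% of all genes. CD96 and CD14 had neither, like 31.8% of all genes. Counted by mark, 7 of the 10 had H3K27ac at the start (61.7% of all genes) and 6 had H3K4me3 (66.0%). Within the gene record and its flanks 9 of the 10 had an H3K27ac peak (72.7% of all genes) and 7 had an H3K4me3 peak (76.4%). With 10 genes, the counts of each mark and of both marks lie near the shares over all genes. Both marks were at 5 of the 9 antigens whose start is in the promoter table, against 61.4% of all genes with such a start.

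**Figure D1:**
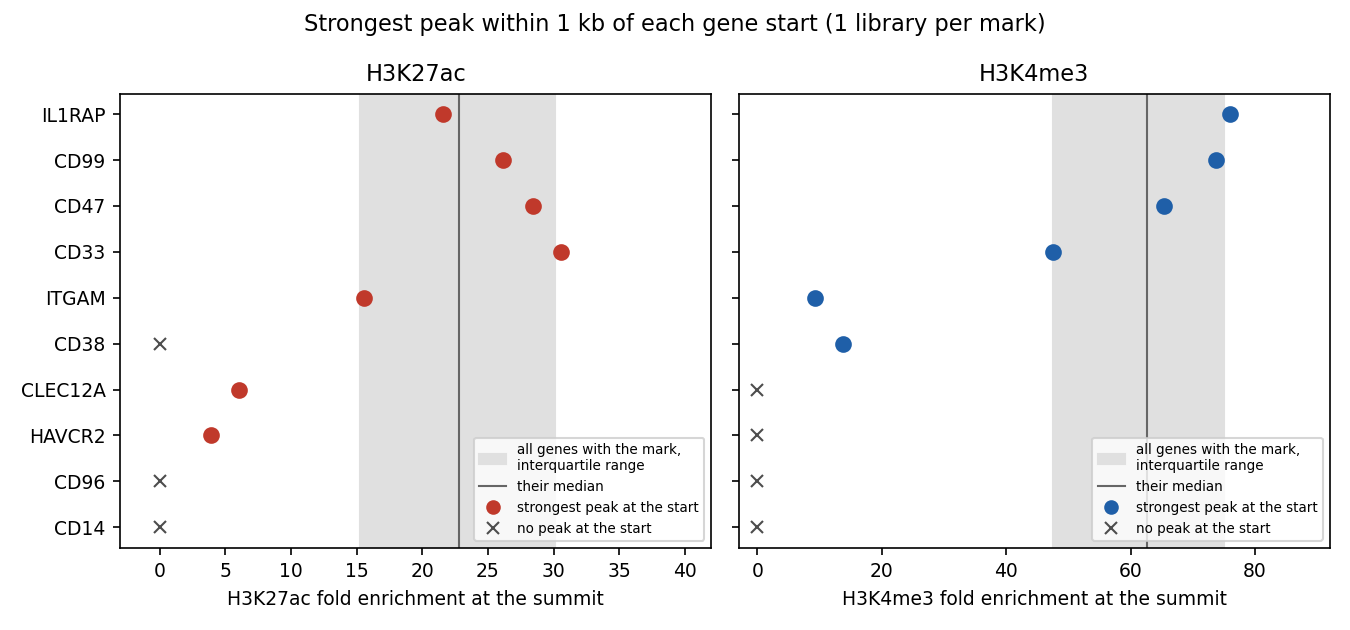
Fold enrichment (x axis) of the strongest H3K27ac peak (left) and H3K4me3 peak (right) within 1 kb of the start of each antigen gene (y axis), 1 library per mark. Grey bands are the interquartile range and lines the median of all protein-coding genes with that mark at the start, crosses are genes with no peak there. For H3K4me3, CD99 and CD47 lie inside the band, IL1RAP just above it and CD33 just below its lower edge, while CD38 and ITGAM lie far below.

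The promoters of the antigens differed in their letters too. The sequences are those of RefSeq (GRCh38.p14), 250 bases before to 50 after the start, and 9 of the 10 genes had one in the table used; HAVCR2 is named only. IL1RAP and CD47 are shown because their promoters are rich in CpG, the dinucleotide that marks the promoters of broadly used genes. CD38 is shown with them because its H3K4me3 peak began just outside this window. Capitals mark each CpG. IL1RAP is at chr3:190513835-190514134 on the plus strand, CD47 at chr3:108090982-108091281 on the minus strand and CD38 at chr4:15778078-15778377 on the plus strand.
IL1RAP: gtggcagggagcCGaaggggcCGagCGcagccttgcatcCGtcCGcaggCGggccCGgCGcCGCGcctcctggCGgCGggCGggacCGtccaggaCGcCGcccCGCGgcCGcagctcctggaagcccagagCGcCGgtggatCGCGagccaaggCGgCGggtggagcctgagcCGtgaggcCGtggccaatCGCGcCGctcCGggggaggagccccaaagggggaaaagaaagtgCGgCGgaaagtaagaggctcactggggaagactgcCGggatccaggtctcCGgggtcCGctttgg
CD47: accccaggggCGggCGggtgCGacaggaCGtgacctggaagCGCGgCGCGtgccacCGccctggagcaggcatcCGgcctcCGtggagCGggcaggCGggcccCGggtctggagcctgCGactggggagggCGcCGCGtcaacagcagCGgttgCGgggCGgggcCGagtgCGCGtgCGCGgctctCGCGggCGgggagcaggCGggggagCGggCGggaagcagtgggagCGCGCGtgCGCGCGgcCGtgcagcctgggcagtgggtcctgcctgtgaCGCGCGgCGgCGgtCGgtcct
CD38: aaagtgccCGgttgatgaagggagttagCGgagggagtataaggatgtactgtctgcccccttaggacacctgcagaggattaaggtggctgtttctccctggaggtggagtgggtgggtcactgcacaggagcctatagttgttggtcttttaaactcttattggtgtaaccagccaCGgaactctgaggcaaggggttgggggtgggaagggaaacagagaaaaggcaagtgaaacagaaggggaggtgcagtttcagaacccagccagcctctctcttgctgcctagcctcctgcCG
IL1RAP holds 36 CpGs, CD47 holds 45 and CD38 holds 4. CD99, on the X chromosome, holds 33.

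The promoters of CD33, ITGAM, CLEC12A and CD14 hold few CpGs but several copies of the letters AGGAAG. This is the core read by ETS factors such as PU.1, a master regulator of myeloid cells. The letters were searched on both strands, so that CTTCCT counts as well, and capitals mark each match. CD33 is at chr19:51224830-51225129 on the plus strand, ITGAM at chr16:31259725-31260024 on the plus strand, CLEC12A at chr12:9971159-9971458 on the plus strand and CD14 at chr5:140633126-140633425 on the minus strand.
CD33: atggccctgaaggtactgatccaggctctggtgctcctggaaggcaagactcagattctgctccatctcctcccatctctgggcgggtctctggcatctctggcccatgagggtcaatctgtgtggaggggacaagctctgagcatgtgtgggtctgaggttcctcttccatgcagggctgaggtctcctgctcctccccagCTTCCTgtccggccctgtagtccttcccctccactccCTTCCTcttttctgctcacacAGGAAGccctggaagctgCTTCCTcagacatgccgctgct
ITGAM: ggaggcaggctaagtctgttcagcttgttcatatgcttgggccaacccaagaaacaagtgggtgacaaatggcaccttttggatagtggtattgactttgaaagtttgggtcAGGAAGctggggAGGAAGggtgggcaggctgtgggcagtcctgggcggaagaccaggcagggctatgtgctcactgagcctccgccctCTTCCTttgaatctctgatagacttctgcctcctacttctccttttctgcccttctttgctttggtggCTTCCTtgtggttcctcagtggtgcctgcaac
CLEC12A: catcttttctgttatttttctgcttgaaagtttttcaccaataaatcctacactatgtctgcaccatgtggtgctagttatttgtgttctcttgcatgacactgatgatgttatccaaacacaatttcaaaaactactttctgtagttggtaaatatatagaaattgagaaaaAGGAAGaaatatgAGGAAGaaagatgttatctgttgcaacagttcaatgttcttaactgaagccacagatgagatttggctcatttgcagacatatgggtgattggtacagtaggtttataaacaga
CD14: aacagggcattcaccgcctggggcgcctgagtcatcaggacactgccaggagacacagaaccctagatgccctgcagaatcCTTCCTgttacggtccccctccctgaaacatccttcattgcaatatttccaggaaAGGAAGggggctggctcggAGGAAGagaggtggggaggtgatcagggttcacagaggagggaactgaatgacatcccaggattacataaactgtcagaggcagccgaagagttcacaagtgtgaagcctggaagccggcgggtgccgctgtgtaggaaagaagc
CD33 and ITGAM hold 4 matches each, CD14 holds 3 and CLEC12A holds 2. None of the other 5 promoters holds one. At least 1 match is present in 33.5% of 15812 promoters of protein-coding genes, 2 or more in 7.54% and 4 or more in 0.228%. Matches are more frequent where CpGs are few, as in CD33, ITGAM, CLEC12A and CD14. Among the 5271 promoters of the lowest group by CpG count, 1618 held 1 match and 595 held 2 or more. A match is a run of letters and not a measured site of binding.

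All promoters were split by CpG count into 3 groups of nearly equal size, and the antigens lay in the lowest and the highest group. CD47, CD99 and IL1RAP were in the highest (28 to 69 CpGs), and all 3 had both marks, as did 84.0% of the genes of that group. CD33 (3 CpGs), CD38 (4), CD96 (6), CLEC12A (0), CD14 (8) and ITGAM (2) were in the lowest (0 to 14 CpGs), where 23.2% of 5271 genes had both marks. Of these 6 antigens CD33 and ITGAM had both. Among the 1399 genes of the lowest group with H3K4me3 at the start, the fold of CD33 was ordinary, with 53.2% of them as high or higher and a median of 50.1. Among the 1474 with H3K27ac there, 18.4% were as high as CD33 or higher, and the median was 18.7.

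**Figure D2:**
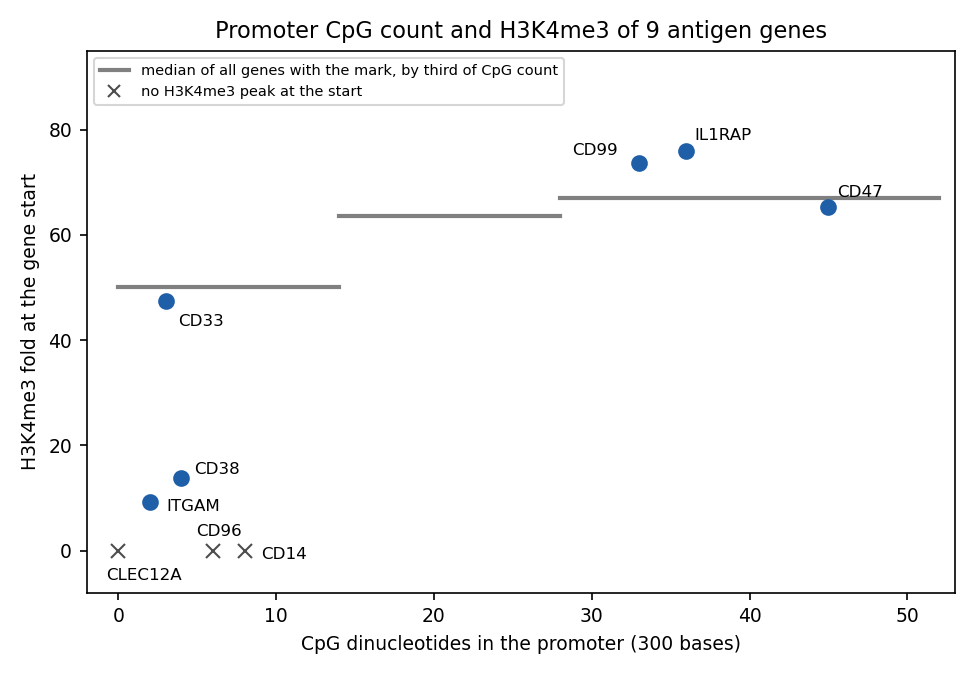
CpG dinucleotides in the 300-base promoter (x axis) against the H3K4me3 fold at the gene start (y axis) for the 9 antigens with a promoter sequence. Grey lines are the median fold of all genes with the mark in each of the 3 groups by CpG count, and crosses are genes without a peak. IL1RAP, CD99 and CD47 stand to the right with folds of 76.0, 73.7 and 65.3, and CD33 is the highest of the 6 on the left with 47.5.

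IL1RAP, the co-receptor for interleukin-1 and interleukin-33, had the most peaks of the antigens. Its record spans 145666 bp of chromosome 3 (190514085 to 190659750) and held, with its flanks, 46 H3K27ac peaks, 46.5% of those over all 10 antigens, and 13 H3K4me3 peaks. By number of H3K27ac peaks it ranked 97 among all protein-coding genes. Long genes have room for more peaks, and per 10 kb its 2.96 H3K27ac peaks stood at percentile 90.7 of all genes, whose median was 0.522. By that measure CD33 (3.60, percentile 94.1) and CD14 (3.34, percentile 93.0) stood above IL1RAP. Many of the peaks of IL1RAP were weak, and 16 of the 46 had a −log10 q below 5. At the start, H3K4me3 had a fold of 76.0 over 3389 bp (percentile 77.0 of the genes with the mark there), from 251 fragments at the summit (exact 95% Poisson interval 221 to 284). H3K27ac had a fold of 21.6 over 2901 bp at the start (percentile 45.6), from 94 fragments (76.0 to 115).

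The strongest H3K27ac peak of IL1RAP was not at its start but inside the gene. It lay between 190613721 and 190623490, 9770 bp wide, with the summit 104030 bp into the gene. Its fold was 36.0, from 183 fragments (exact 95% Poisson interval 157 to 212), so that the counting intervals of this peak and of the start do not overlap. Among 96659 H3K27ac peaks its width ranked 193. H3K4me3 covered 14.4% of it, with a highest fold of 8.42, whereas it covered 98.2% of the H3K27ac peak at the start. All 13 H3K4me3 peaks of the gene met an H3K27ac peak.

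That peak was the widest and highest of the 5 H3K27ac peaks in the one super-enhancer over the antigens. The next was 3330 bp wide with a fold of 13.2. The authors' deposited table assigned to IL1RAP a region of 19850 bp (chromosome 3, 190603641 to 190623490) that lies wholly inside the gene, from 89.6 to 109 kb past the start. No other antigen was a target or overlapped a super-enhancer, which makes 1 of 10, where 3.59% of all protein-coding genes were targets or overlapped one and 2.25% were targets. By the authors' difference of H3K27ac and input signal the region ranked 423, and 79.3% of the regions of the table had a larger difference. It was short, with 9.02% of the regions shorter and a median length of 41.6 kb. Per base its H3K27ac signal was 1.17, against a median of 0.819 over the table, and 18.0% of the regions had a higher one. Its ratio of H3K27ac to input signal was 9.48, against a median of 8.11. H3K27ac peaks covered 71.5% of the region and H3K4me3 peaks 9.13%. By its name, the deposited table chose targets within the same chromosome domain by closeness and by expression in TT-seq, an RNA measurement. The assignment thus rests in part on expression, which was not examined here.

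**Figure D3:**
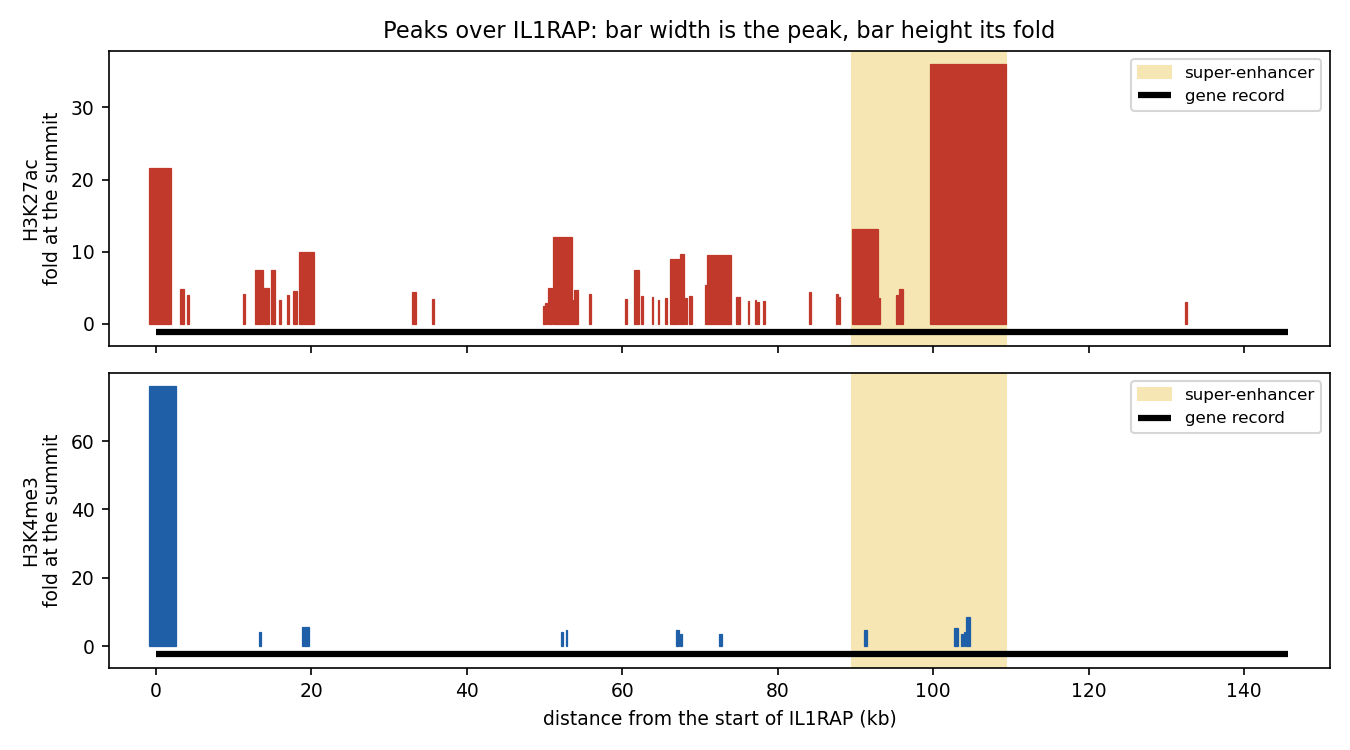
H3K27ac (top) and H3K4me3 (bottom) peaks over IL1RAP by distance from the gene start in kb (x axis), with bar width the peak and bar height its fold (y axis). The pale band is the super-enhancer and the black line the gene record. H3K4me3 is high only at the start, with a fold of 76.0, whereas the highest H3K27ac bar, with a fold of 36.0, lies in the band.

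CD47, the ligand by which a cell signals to the phagocyte receptor SIRPA not to be engulfed, had broad marks confined mostly to its start. The record lies at 108043091 to 108091031 of chromosome 3 on the minus strand. The single H3K4me3 peak was 5305 bp wide (percentile 95.6 of the genes with the mark at the start) with a fold of 65.3 (percentile 55.1), from 276 fragments (exact 95% Poisson interval 244 to 311). The H3K27ac peak at the start was 7483 bp wide (percentile 98.2) with a fold of 28.4 (percentile 69.3), from 182 fragments (157 to 210). It reached from 3080 bp before the start to 4402 bp into the gene. The other 4 H3K27ac peaks had folds of 2.95 to 5.53.

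CD99, an adhesion protein of most cell types, had the widest H3K27ac peak at a start among the antigens. Its record is in the pseudoautosomal part of chromosome X (2691295 to 2741309), which has a copy on chromosome Y. Neither list holds a peak on chromosome Y, and no source used here gives how reads that match both copies were treated, so its values are uncertain. The H3K27ac peak was 9012 bp wide (percentile 99.0) with a fold of 26.2, from 140 fragments (exact 95% Poisson interval 118 to 165). The H3K4me3 peak was 3232 bp wide with a fold of 73.7, from 286 fragments (254 to 321). Downstream in the gene lay further H3K27ac peaks, with folds of 19.0 and 17.5 at summits 15874 and 16650 bp from the start. Of the 8 H3K4me3 peaks of CD99 all met H3K27ac, and the 7 beyond the start had folds of 4.65 to 9.92.

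**Figure D4:**
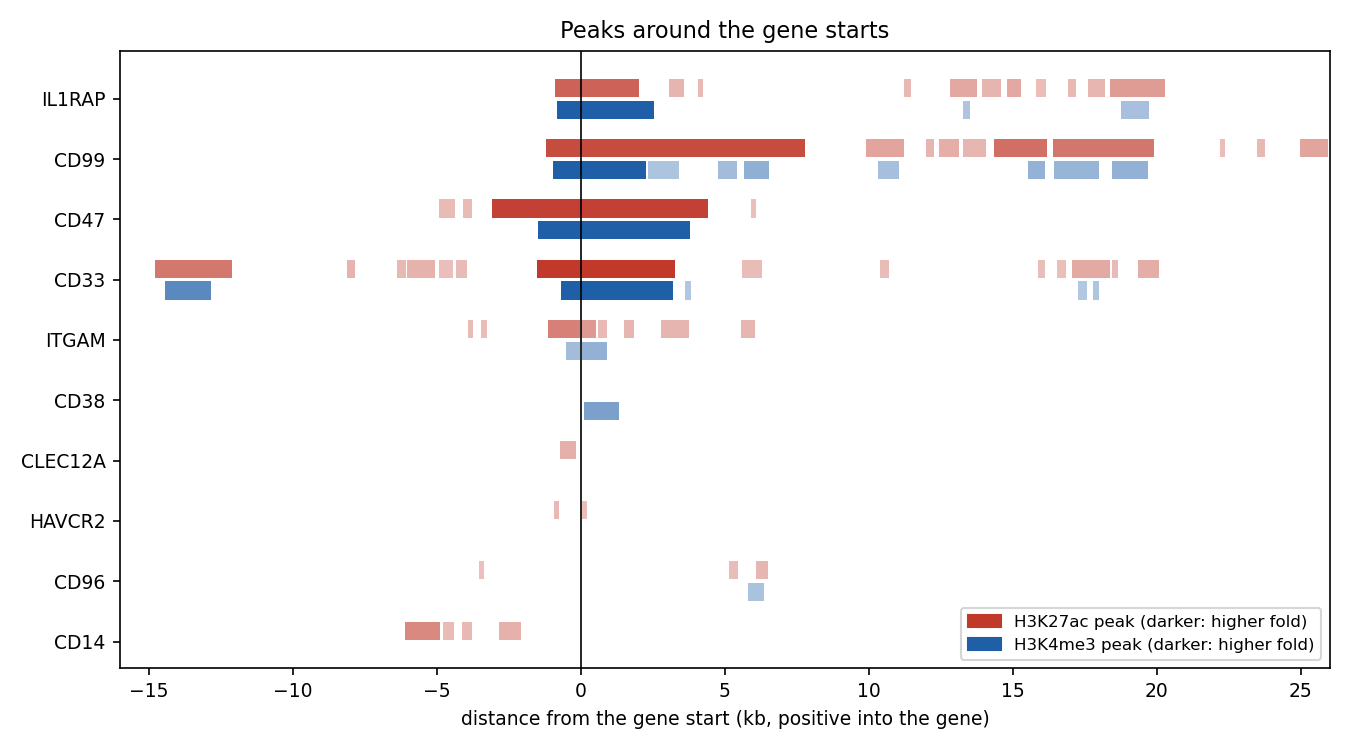
Peaks of H3K27ac (red) and H3K4me3 (blue) by distance in kb from the start of each antigen gene (x axis; for HAVCR2, from the upper end of its record), with darker bars for higher folds, shown from 16 kb before to 26 kb after the start. CD99 and CD47 have the widest intervals at the start, CD33 has another pair of intervals about 14 kb before it, CD38 has H3K4me3 alone, and CD96 and CD14 have no peak at the start.

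CD33, a sialic acid-binding lectin of myeloid cells and the target of the antibody conjugate gemtuzumab ozogamicin, had both marks at its start and another pair far before it. At the start the H3K27ac peak (chromosome 19, 51223556 to 51228346) had a fold of 30.6 (percentile 76.4), the highest at a start among the antigens, from 174 fragments (exact 95% Poisson interval 149 to 202). The interval overlaps that of the 182 fragments of CD47. The H3K4me3 peak was 3879 bp wide (percentile 83.6) with a fold of 47.5 (percentile 24.8), from 206 fragments (179 to 236). Relative to other genes CD33 was thus high in H3K27ac, and in H3K4me3 wide rather than high. H3K27ac peaks covered 34.8% of the window around CD33, the highest share among the antigens (percentile 93.1 of all genes, whose median was 4.64%).

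The upstream pair at CD33 lay at 51210301 to 51212954 for H3K27ac and 51210630 to 51212228 for H3K4me3, with folds of 17.4 and 19.4. It met the beginning of the CD33 record at 51211076, while the start used here is at 51225080. Both intervals also overlap the records of the pseudogene SIGLEC22P and of 2 long non-coding RNA genes, LOC124904751 and LOC107985327. The listed start of LOC124904751, at 51212984, lies within 1 kb of both intervals, and that of LOC107985327, at 51271167, lies far from them. Overlap alone cannot assign the pair to 1 of these records, and its origin was not tested. The pseudogene belongs to the same family as CD33, so reads there may be shared with other copies. Past the far end of the record, H3K27ac peaks with folds of 7.30 and 6.48 lay inside the flank.

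ITGAM encodes CD11b, the alpha chain of an adhesion and complement receptor of granulocytes and monocytes. Its marks at the start were present but low. Its H3K27ac peaks at the start had folds of 15.6, 10.5 and 3.95, the strongest from 71 fragments (exact 95% Poisson interval 55.5 to 89.6) and at percentile 25.9. H3K4me3 came as 2 peaks of 6.59 and 9.22 fold, the latter from 36 fragments (25.2 to 49.8) and at percentile 3.70 of the genes with the mark at the start. They lay either side of the start at 31259975 of chromosome 16. The H3K4me3 count of ITGAM was below those of IL1RAP, CD99, CD47 and CD33, with intervals that do not overlap theirs.

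CD38, an enzyme of the cell surface that turns NAD into cyclic ADP-ribose, was the one antigen with H3K4me3 and no listed H3K27ac. A single H3K4me3 peak of 1223 bp began 92 bp past the start (chromosome 4, 15778420 to 15779642) and had a fold of 13.8, from 47 fragments (exact 95% Poisson interval 34.5 to 62.5). Its fold stood at percentile 5.54 of the genes with the mark at the start. No H3K27ac peak lay in the record of 74905 bp or its flanks. Acetylation too weak to enter the deposited list was not detectable.

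CLEC12A, an inhibitory lectin of myeloid cells also known as CLL-1, had 1 H3K27ac peak in a record of 54883 bp, and no H3K4me3 peak. The peak (chromosome 12, 9970687 to 9971223) ended 186 bp before the start and had a fold of 6.05, from 22 fragments (exact 95% Poisson interval 13.8 to 33.3), at percentile 6.83 of the genes with the mark at the start. HAVCR2, the inhibitory receptor TIM-3, had 2 narrow H3K27ac peaks near the upper end of its record at 157109044 of chromosome 5. They were 195 and 193 bp wide with folds of 3.16 and 3.89, from 11 and 18 fragments, among the weaker peaks of a list whose median fold was 4.47. For HAVCR2 the table used gives no start, and both ends of the record were searched.

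CD96, a receptor of T and NK cells also described on leukaemic stem cells, had no peak within 1 kb of its start at 111542197 of chromosome 3. Weak peaks of both marks met inside the gene, the H3K27ac summit 6245 bp from the start (fold 4.68) and the H3K4me3 summit 6196 bp from it (fold 4.99). Its strongest peaks lay past its far end, at 111666693 to 111667975 for H3K27ac (fold 15.7, 59 fragments, exact 95% Poisson interval 44.9 to 76.1) and 111667600 to 111667903 for H3K4me3 (fold 6.16). The next protein-coding gene on that side, PLCXD2, begins at 111674676.

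CD14, the monocyte co-receptor for bacterial lipopolysaccharide, is a gene of 1970 bp that lies inside the record of TMCO6. It had no H3K4me3 peak and 4 H3K27ac peaks, all in the flank before its start. The nearest had its summit at -2718 bp from the start and a fold of 5.64 from 21 fragments. The strongest, with a fold of 13.9, lies on the edge of the 5 kb flank, its summit 318 bp outside, and within 1 kb of a start of TMCO6. Without that peak the folds at CD14 were 3.67 to 5.64.

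The expected background at the peaks over the antigens was 2.80 to 6.35 fragments for H3K27ac and 1.92 to 4.36 for H3K4me3, with medians of 3.63 and 3.06 against 3.63 and 2.66 over the lists. Apart from IL1RAP, the nearest super-enhancers were those of CLEC2B, 78.0 kb from CLEC12A, and of SIGLEC12, a relative of CD33, 200 kb from CD33. For the other 7 antigens the nearest was 768 kb or more away.

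Genes whose promoters looked most like those of the antigens were sought by the fold and width of both marks at the start, 4 values on the log2 scale, over 11887 other genes with both. For CD47 the nearest were TAL1, a master factor of blood formation, and CLN3, at distances of 0.12 and 0.21. For IL1RAP they were POLR1B and PAPOLA, at 0.09 and 0.10. For CD33 they were PLEKHA2 (0.19) and STAT5A (0.21), for CD99 PPP1R14B (0.25) and CCDC170 (0.34), and for ITGAM PECAM1 (0.26) and MS4A7 (0.35). These are likenesses of 1 peak per mark in 1 library each. For PECAM1, without an entry in the promoter table, both ends of the record were searched.

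Partners of the antigens at the membrane carried both marks at the start in 15 of 26 cases (57.7%, 95% Wilson interval 38.9 to 74.5%), near the 59.5% of all genes. SIRPA, the phagocyte receptor for CD47, had an H3K27ac fold of 36.7 and an H3K4me3 fold of 51.1, the order in which folds follow here. SIRPB1, a relative of SIRPA listed with it and not as a partner of CD47, had 4.88 and 5.44. Of the other partners of CD47, THBS1 (thrombospondin-1) had an H3K4me3 fold of 16.1 without H3K27ac, and SIRPG had neither mark. For SIRPA, NECTIN1, ITGB2 and others without an entry in the promoter table, both ends of the record were searched. LGALS9 and HMGB1, ligands of HAVCR2, had 24.9 and 62.5, and 42.1 and 67.1, and CEACAM1, another described ligand, had neither mark. PILRA and PILRB, paired receptors listed with CD99, had an H3K27ac fold of 13.4 without H3K4me3, and folds of 16.9 and 4.08. Around IL1RAP the chains that bind the ligand were weak or without marks. IL1R1 had folds of 4.19 and 11.9, IL1RL1, the interleukin-33 receptor, had an H3K27ac fold of 4.44 without H3K4me3, and IL1RL2 had neither. Of the ligands IL1B had both marks, with folds of 17.7 and 24.1, and IL1A and IL33 had neither. ITGB2, the beta chain that pairs with CD11b, had folds of 17.4 and 13.5, and its ligand ICAM1 had 26.3 and 34.7. TLR4, which signals for CD14, had folds of 12.1 and 22.1, TLR2 had 9.54 and 47.9, and LBP, which hands lipopolysaccharide to CD14, had neither mark. PVR and NECTIN1, described as ligands of CD96, had folds of 17.7 and 56.0, and 15.3 and 72.2, while TIGIT and CD226, other receptors of PVR, had neither mark.

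**Figure D5:**
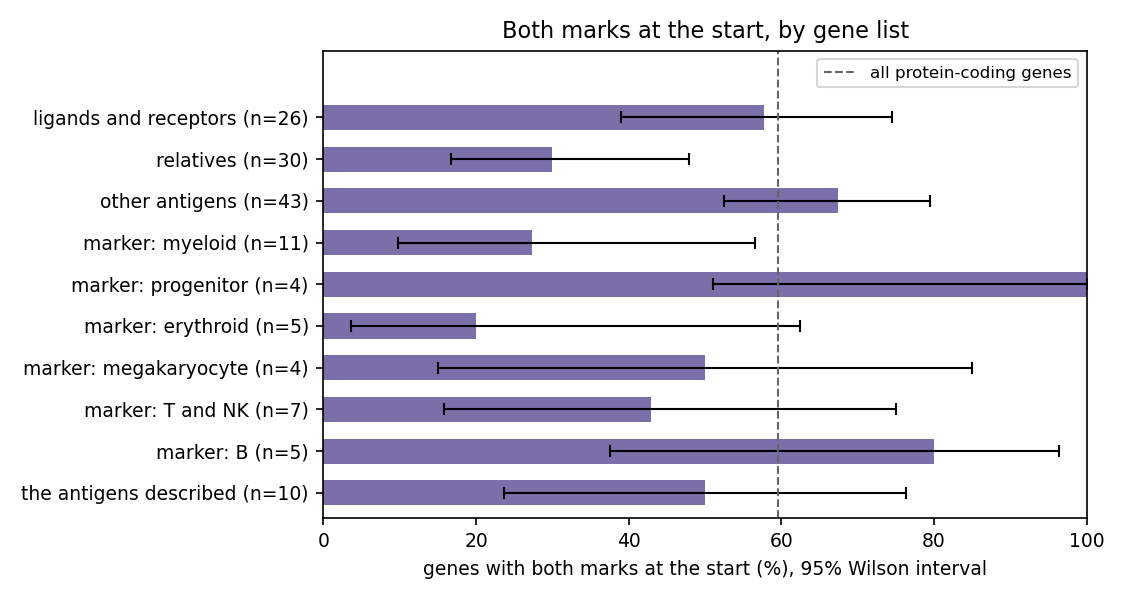
Percent of genes with both marks at the start (x axis) for each gene list (y axis, n is the number of genes), with 95% Wilson intervals that cover counting error only. The dashed line is the 59.5% of all protein-coding genes. The intervals of the antigens, their ligands and receptors and the other antigens include the line, and those of the relatives, at 30.0%, and of the myeloid markers end below it. The lists were chosen with earlier results known and their genes are not independent draws. The intervals are thus no test against all genes.

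Relatives of the antigens by family carried both marks in 9 of 30 cases (30.0%, 95% Wilson interval 16.7 to 47.9%), where 59.5% of all genes had both. Many of these families sit in clusters of neighbouring genes, so the cases are not separate. Of 8 CD33-related Siglecs on chromosome 19, SIGLEC6, SIGLEC10, SIGLEC12 and SIGLEC14 had both and the other 4 neither. SIGLEC14 and SIGLEC5 are near-identical over part of their length and are uncertain. SIGLEC12 was a super-enhancer target (rank 344), with folds of 26.6 and 48.6. Of 10 C-type lectin genes on chromosome 12, CLEC2B alone had both marks, with folds of 13.7 and 39.9 and a super-enhancer (rank 429), while CLEC12B and CLEC9A, the neighbours of CLEC12A, had neither. Among the alpha chains beside ITGAM on chromosome 16, ITGAL (CD11a) had folds of 21.7 and 43.7 and a super-enhancer (rank 143), ITGAX (CD11c) had 8.42 and 3.97, and ITGAD had neither. Of the relatives of CD99, CD99L2 had folds of 32.4 and 65.2 and XG had neither mark. BST1, the neighbour and relative of CD38, had folds of 5.40 and 41.9, at percentiles 5.73 and 18.4. For BST1, CLEC2B, ITGAL, ITGAX and others without an entry in the promoter table, both ends of the record were searched.

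Among 43 other antigens used on myeloid leukaemia cells 29 had both marks (67.4%, 95% Wilson interval 52.5 to 79.5%), near the 59.5% of all genes. The highest H3K27ac fold was that of ANPEP (CD13), 42.1, with an H3K4me3 fold of 93.5. Next were SPN (CD43), with 38.2 and 67.3, and CD4, with 32.1 and 54.9. For SPN, CD4 and others without an entry in the promoter table, both ends of the record were searched. Their peaks may lie at the far end or belong to a neighbouring gene. Super-enhancer targets in this list numbered 8 of 43, where 2.25% of all protein-coding genes were targets. Targets and genes overlapping a super-enhancer together numbered 13, where the share of all genes was 3.59%. The list was chosen with earlier results known, and the assignment of targets rests in part on expression. Both counts are thus no test against all genes. The targets were ADGRG1 (rank 16), SPN (rank 23), VSIR (rank 33) and CD34 (rank 38). Further down were PTPRC (CD45, rank 50), CD44 (rank 127), TFRC (rank 292) and ADGRE5 (rank 417). At its start ADGRG1 had an H3K27ac fold of only 3.68, without H3K4me3. IL3RA, the CD123 chain of the interleukin-3 receptor, had folds of 21.6 and 50.1, and FLT3 had 24.9 and 46.2. FCGR1A, CD36, CD93, PROM1 and LILRB4 had neither mark. IL3RA, like CD99, is pseudoautosomal, and its values are uncertain.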

How the data were processed

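H3K27ac, H3K4me3 and input were sequenced once each in KBM7 cells, so the groups are the marks with 1 library per group. Bowtie2 2.3.4, bedtools 2.20.1 and the build hg38 are named in the submitters' processing notes, and no source used here names the peak caller. In the deposited peak lists the authors give for each peak a score, a fold enrichment (a ratio to the expected background), the summit position, and p-value and q-value as −log10. The authors' super-enhancer table holds, per the file headers, the summed signal of H3K27ac and of input in each region, on a scale that no source used here states. A fold was compared only within 1 list.

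Fragments at a summit were recovered as the whole-number pileup for which fold = (pileup + 1)/(expected + 1) and p is the upper Poisson tail, which held within 0.01 on the −log10 scale in 100% of rows and was tested on simulated data. Whether these are read pairs or extended reads is stated in no source used here. The read total of each library was not analysed here. Gene records and promoters came from RefSeq. Gene starts were taken from the promoter table, and from both ends of the record for the 4162 of 19974 genes without one. Overlaps needed 1 bp. The strongest peak within 1 kb of the start stands for a gene, and percentiles are among genes with that mark at the start, or among all genes for peaks per 10 kb and covered share. Exact Poisson and Wilson intervals (95%) cover counting error only; fragments without molecular identifiers are not independent molecules. Python 3.11.15, numpy 2.4.6, pandas 2.3.3 and scipy 1.17.1 were used.

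The antigens, the lists of partners, relatives, other antigens and markers and the motifs were chosen with earlier results of these data known. All antigens are named. Of the other lists the rule allows the naming of genes with a super-enhancer, of genes without both marks where their antigen has them and of the 3 highest H3K27ac folds, and not all of these are named; others were named after their values were seen because they pair with an antigen or are common markers. Motifs other than AGGAAG were searched too, on both strands: TGTGGT (RUNX) was in 3 of 9 antigen promoters (10.8% of all), AGATAA in 1 (7.55%), TGANTCA (AP-1) in 1 (5.76%), GGGCGG (SP1) in 5 (58.5%), TATAAA in 1 (9.64%) and CCAAT (NF-Y) in 3 (36.3%). Alternatives tried were stricter peaks, other flanks, windows and overlaps.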

Additional observations from a re-analysis of the deposited data

How the results depend on the processing

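With 1 library per mark no replicate could be left out, and no value has a replicate error. No paired analysis was possible because each group holds 1 sample and no test between groups was made. Of 49 recomputed counts over 10 results, 46 stayed within 1.5 times the reported count. The number of H3K27ac peaks over the antigens was 46 in place of 99 with the top 50% of peaks by fold. The number of H3K4me3 peaks was 6 in place of 32 with the top 50%, and 50 with a flank of 20 kb. With the top 50% of peaks ITGAM lost H3K4me3 and HAVCR2 lost H3K27ac at the start, leaving 4 antigens with both marks. With both ends of the record in place of the start, CD96 gained H3K27ac through its far end and CLEC12A lost it. IL1RAP was the one antigen with a super-enhancer in all 5 settings. These settings could not change that count. The region is assigned to IL1RAP and lies inside it, and the nearest region to another antigen was 78.0 kb away. The weakest calls over the antigens rest on 11 fragments, and no alternative varied the depth.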

Other observations

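Promoters with few CpGs were also split by their matches to AGGAAG. In the lowest of the 3 groups by CpG count, both marks were at the start of 20.1% of 3058 genes without a match, 24.6% of 1618 with 1 match and 35.0% of 595 with 2 or more. CD33, ITGAM, CLEC12A and CD14 are among the last, of which CD33 and ITGAM had both marks, and CD38 and CD96 among the first. These shares describe 1 library per mark, the genes are not replicates, and other letters that move with the match were not examined.

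At the start CD33 ranked higher in H3K27ac than in H3K4me3 among genes with the mark, and IL1RAP the other way. CD33 stood at percentile 76.4 for H3K27ac fold and 24.8 for H3K4me3 fold, and IL1RAP at 45.6 and 77.0. ITGAL, SIGLEC10 and CD79A, outside the antigens, were chosen after their values were seen. Their percentiles were 46.2 and 20.2, 78.2 and 7.80, and 96.5 and 6.90. For ITGAL both ends of the record were searched.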
